A study of Mus musculus with 16 samples.

Results

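The genes of the contractile apparatus were represented by 66 probes annotated to 49 genes, out of 20794 probes on a two-colour mouse array, of which 12771 carried a symbol for 9030 genes. A probe was a member if the platform annotation gave it the symbol of a conventional or numbered unconventional myosin, a myosin light chain, a troponin, a tropomyosin, an alpha-actinin, an actin or a calponin, or of Mb, Des, Tagln, Ckm, Myom1 or Ttn. Tagln and Ttn were named by no probe of the annotation used here, nor were the sarcomeric and smooth muscle actins Acta1 and Acta2. The members were divided by the muscle kind in which the gene is best known: 23 probes of 20 striated muscle genes, 2 probes of the smooth muscle genes Myh11 and Actg2, 21 probes of 12 non-muscle genes, 12 probes of 11 unconventional myosins, and 8 probes of Des, Tpm1, Tpm2 and Tpm3, which serve both muscle kinds.

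The study set total RNA of spleen and thymus from 4 EMP3 mutant males, aged 17 weeks, against pooled RNA from wild-type males of that age, taken from the same organ. EMP3 encodes a small membrane protein with several membrane-spanning segments, and the labels do not state what kind of mutation the mice carried. The same 4 mutant mice gave both organs, and each organ was hybridised on 2 arrays with the dyes exchanged. The channel labels and the design text give 4 mice for the pool and the labelling protocol gives 6, and the series title names thymus and brain where the sample labels name spleen and thymus, which were followed here.

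Contraction rests on thick filaments of myosin pulling on thin filaments of actin. In striated muscle, calcium binding to troponin shifts tropomyosin along the thin filament, whereas in smooth muscle and non-muscle cells phosphorylation of the myosin light chain starts the cycle, with calponins and caldesmon acting on the thin filament. The mouse spleen has a capsule and trabeculae that hold smooth muscle cells, every cell holds the cytoplasmic actins and non-muscle myosins, and the thymus holds scattered myoid cells that express sarcomeric genes. Unconventional myosins carry membranes and other cargo along actin.

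The values are log ratios, read as log2 of mutant over wild-type pool. That reading of base and direction is likely from the design text and the range of the values, but no label states it. A log ratio holds no level, so it could not be checked from defining markers whether muscle tissue was present in either organ, and fewer cells of a type cannot be told apart from less RNA per cell. The mean of a mouse's 2 arrays was 1 replicate. In thymus, the arrays of mouse 2 mirrored each other (r = -0.922 over all probes) and were not used, which left 4 mice for spleen and 3 for thymus. Between a mouse's paired arrays, the spleen correlations ranged over the members from 0.313 to 0.626 (all probes 0.052 to 0.424). Those of the 3 thymus mice used were negative, from -0.49 to -0.15 over the members (all probes -0.44 to -0.249). The probes annotated to Emp3 itself did not pass the test in spleen, at 0.20 ± 0.25 and 0.27 ± 0.38 (SD, n = 4; adjusted p = 0.204 and 0.214), and the region either probe covers is not given. All adjusted p-values come from limma with Benjamini-Hochberg adjustment over every probe tested, and 0.05 or less is called passed, higher or lower. The test is of mutant mice against 1 pool, so it leaves out the spread among wild-type mice.

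The link between probe and gene was itself in doubt. Over the whole array, different probes of 1 gene that lay more than 400 IDs apart showed no shared value in spleen (Spearman correlation 0.0 over 4431 pairs, as a description). Their direction was the same in 50.3% of the pairs, and in 144 of the 284 pairs in which both probes had passed. The gene names below are therefore those of the annotation, and each result belongs to the probe.

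Of the members' genes, 41 had a promoter window in the RefSeq table for GRCm38.p6, running from 250 bases before to 50 bases after a transcription start. The CArG box, the site bound by serum response factor at many muscle and cytoskeletal genes, lay in the windows of 8 of these 41 genes (19.5%) and of 1.81% of all 27025 genes in the table. By window, 8 of 55 (14.5%) held it against 1.63% of all windows. No window of a member held the site of MEF2 factors, which 3.19% of all windows held, and CAGCTG, a form of the E-box read by myogenic factors, was in 36.4% of the members' windows and 16.3% of all. Both strands were searched, a CArG box and CAGCTG cannot overlap by their letters, and a match is a description of letters only. The 5 of these 8 genes that had a called probe in spleen are shown, since their probes went in different directions. Each sequence runs 5′ to 3′ in the direction of the gene and ends before the transcription start, with the CArG box in capitals.
Actc1, chr2:114052876-114052967, minus strand: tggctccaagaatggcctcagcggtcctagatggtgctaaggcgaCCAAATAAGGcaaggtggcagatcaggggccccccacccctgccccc
Actg1, chr11:120348531-120348630, minus strand: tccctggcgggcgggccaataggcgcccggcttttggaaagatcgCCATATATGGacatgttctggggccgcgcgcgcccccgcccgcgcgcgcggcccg
Cnn2, chr10:79988499-79988598, plus strand: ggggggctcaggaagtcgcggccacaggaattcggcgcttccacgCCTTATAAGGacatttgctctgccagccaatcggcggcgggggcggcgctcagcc
Myl6, chr10:128493010-128493104, minus strand: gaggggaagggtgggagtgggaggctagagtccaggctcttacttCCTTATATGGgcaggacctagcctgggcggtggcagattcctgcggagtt
Myo1e, chr9:70207273-70207349, plus strand: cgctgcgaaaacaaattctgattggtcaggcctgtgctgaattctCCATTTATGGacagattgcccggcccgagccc
The first base of the box lay 47 bases before the start in Actc1, 90 in Actg1, 56 in Cnn2, 50 in Myl6 and 32 in Myo1e. The other 3 genes with the box, Myl3, Myl7 and Myom1, had no called probe.

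In spleen, 24 of the 66 member probes passed (36.4%), against 25.3% of the 20127 probes tested. Of these, 10 were higher in the mutant mice (15.2% of the members, 13.4% of all probes) and 14 were lower (21.2%, against 11.9%). The calls fell on 21 genes, 8 with higher and 13 with lower probes, and no gene had calls in both directions. In 23 of the 24 called probes every mouse lay on the same side of 0, the exception being Tnni2. The test itself favours such probes, so this count adds no support to the calls. The median log2 ratio was -0.04 over the members and 0.04 over all probes tested. Changes were small: the Tnnc2 probe alone exceeded 1 in size among the calls, and the lowest call was -0.96.

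**Figure D1:**
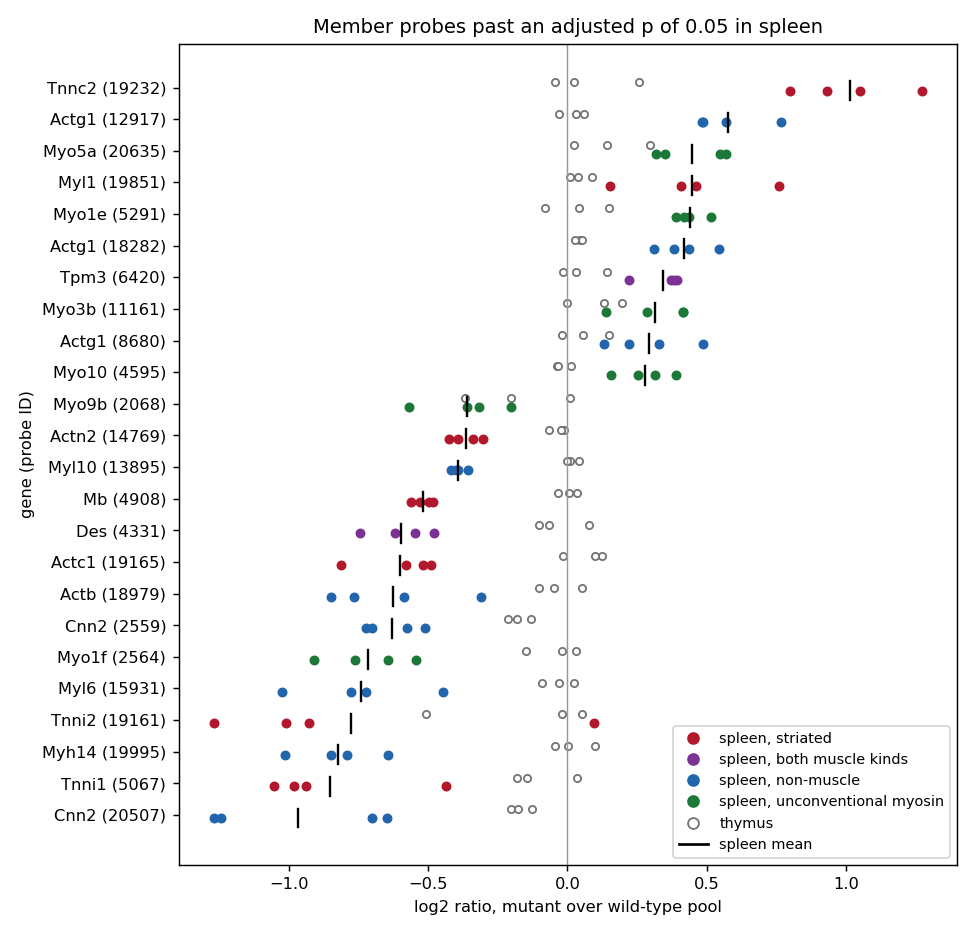
Log2 ratio of mutant over wild-type pool (horizontal axis) for the 24 member probes called in spleen (vertical axis, gene and probe ID). Filled points are the spleen mice, coloured by class, bars are the spleen means and open circles are the thymus mice, whose lowest value is -0.51 at Tnni2. Spleen means run from 1.01 at Tnnc2 to -0.96 at Cnn2, and 1 Tnni2 value, of mouse 1, lies at 0.10 while the other 3 lie below -0.9.

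The troponins, the calcium switch of the striated thin filament, moved in both directions. Of 9 troponin probes of 8 genes, 1 was higher, 2 were lower and 6 did not pass, with 7 of the 9 means below 0. The probe of Tnnc2, the calcium-binding subunit of fast skeletal muscle, read 1.27, 0.80, 0.93 and 1.05 in spleen mice 1 to 4. It read 0.26, 0.03 and -0.05 in thymus mice 1, 3 and 4, so that every spleen value lay above every thymus value. Its spleen mean of 1.01 ± 0.20 (SD, n = 4; adjusted p = 0.00401) amounts to 2.02-fold higher in the mutant.

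The probe of Tnni1, the inhibitory subunit of slow skeletal muscle, went the opposite way. It read -0.44, -1.05, -0.94 and -0.98 in spleen, and 0.03, -0.14 and -0.18 in thymus. Mouse 1 was the least lowered, and the tissues did not overlap. The mean was -0.85 ± 0.28 (adjusted p = 0.00562), which is 1.80-fold lower.

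Tnni2, the inhibitory subunit of fast muscle, passed with little to spare. Its probe read 0.10, -0.93, -1.01 and -1.27 in spleen, so mouse 1 stood apart from 3 clearly lowered mice, and -0.51, -0.02 and 0.05 in thymus, which overlaps the spleen range. The mean was -0.78 ± 0.60 (adjusted p = 0.0478), and the call was lost without mouse 2, 3 or 4, at adjusted p of 0.14, 0.118 and 0.148.

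The other troponin probes did not pass. Tnni3, the cardiac inhibitory subunit, averaged -0.34 ± 0.25 (adjusted p = 0.0616) with all 4 spleen mice below 0, between -0.62 and -0.02. Tnnt2, the cardiac tropomyosin-binding subunit, averaged -0.20 ± 0.32, with mouse 4 at 0.21 and the others below 0. Tnnc1, the calcium-binding subunit of heart and slow muscle, averaged -0.20 ± 0.21. The tropomyosin-binding subunit of slow muscle, Tnnt1, stood at -0.17 ± 0.20. Once a running median over neighbouring probe IDs was subtracted, its value turned to 0.31 (adjusted p = 0.0579). Tnnt3, the fast muscle counterpart of Tnnt1, had 2 probes that differed in sign, at -0.11 ± 0.07 and 0.08 ± 0.24. The called troponin probes were thus Tnnc2 on the higher side and Tnni1 and Tnni2 on the lower. The Tnni2 call was lost when some single mice were left out, and Tnnc1, the other calcium-binding subunit, averaged below 0. With the link between probe and gene in doubt, no pattern by subunit is drawn.

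Among the actins, 3 of 8 probes were higher and 2 were lower. Actg1, the cytoplasmic gamma-actin, was the gene with the most member probes, and all 4 had means above 0. The largest, probe 12917, read 0.49, 0.48, 0.77 and 0.57 in spleen and 0.06, 0.03 and -0.03 in thymus. Its mean was 0.58 ± 0.13 (adjusted p = 0.00505), and the tissues were fully apart. Probe 18282 gave 0.38, 0.54, 0.44 and 0.31, with a mean of 0.42 ± 0.10 (adjusted p = 0.00865). These 2 probes lay well above their thymus values in every mouse. With the running median over neighbouring IDs subtracted, probe 12917 averaged 0.36 (adjusted p = 0.028) and kept its call. Probe 18282 fell to 0.20 (adjusted p = 0.103) and lost its call. The latter was also not called on the arrays with the mutant in Cy5 alone (adjusted p = 0.0526). Probe 8680 gave 0.49, 0.33, 0.22 and 0.13, with a mean of 0.29 ± 0.15 (adjusted p = 0.0416). Its arrays with the mutant in Cy5 alone averaged -0.06 and those with the mutant in Cy3 0.64, and its call was lost when any 1 mouse was left out. It fell to 0.13 with the running median subtracted (adjusted p = 0.289). Probe 10015 did not pass, at 0.16 ± 0.24, with mouse 3 at 0.52 and the other mice between 0.00 and 0.06.

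Actb, the cytoplasmic beta-actin, had 2 probes that pointed in opposite directions. Probe 18979 read -0.31, -0.77, -0.59 and -0.85, a mean of -0.63 ± 0.24 (adjusted p = 0.00908). Probe 11376 was measured on both arrays in 3 mice, at 2.04, 0.31 and 0.54, and did not pass (0.96 ± 0.94, n = 3; adjusted p = 0.106). The first was lowered in every mouse and the second lay above 0 in every mouse measured, with mouse 1 far above the others.

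Actc1, the actin of heart muscle and of developing skeletal muscle, read -0.49, -0.81, -0.52 and -0.58 in spleen and 0.12, -0.02 and 0.10 in thymus. All spleen values lay below all thymus values. Its mean was -0.60 ± 0.15 (adjusted p = 0.00505), 1.52-fold lower. The arrays with the mutant in Cy3 gave -0.98 and those with the mutant in Cy5 gave -0.22. Actg2, the smooth muscle gamma-actin, did not pass, at 0.05 ± 0.10, with mice on both sides of 0.

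Both probes of Cnn2, a calponin of smooth muscle and non-muscle cells that binds actin filaments, were lower. Probe 20507 read -0.65, -1.24, -0.70 and -1.27 in spleen and -0.18, -0.13 and -0.20 in thymus, so mice 2 and 4 were lowered about as far as each other and mice 1 and 3 less. Its mean of -0.96 ± 0.34 (adjusted p = 0.0058) was the lowest of the calls. Probe 2559 read -0.58, -0.51, -0.70 and -0.72, a mean of -0.63 ± 0.10 (adjusted p = 0.00403). Cnn2 was thus the 1 gene with more than 1 lower call, as Actg1 was on the higher side. Once a running median over neighbouring probe IDs was subtracted, probe 20507 fell to -0.32 (adjusted p = 0.115) and was no longer called. The Cnn3 probe stood at 0.01 ± 0.14 and did not pass.

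Among the conventional myosin heavy chains, Myh14 was called. Myh14, a non-muscle myosin II heavy chain, read -0.65, -0.85, -1.02 and -0.79 in spleen and -0.05, 0.00 and 0.10 in thymus. The spleen mice were all well below the thymus mice, and the mean was -0.82 ± 0.15 (adjusted p = 0.00401), 1.77-fold lower. Myh11, the heavy chain that defines smooth muscle, read -0.63, -0.04, -0.19 and -0.33 and did not pass (-0.30 ± 0.25, adjusted p = 0.0893). All 4 of its spleen values were below 0, and they overlapped the thymus values of 0.19, 0.17 and -0.23. Neither of the 2 smooth muscle probes was therefore called in either direction in spleen.

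The myosin light chains stabilise the lever of the heavy chain and set its activity. Of the 7 non-muscle light chain probes, 2 were lower and none was higher. Myl6, the essential light chain of smooth and non-muscle myosin, read -0.45, -0.78, -1.02 and -0.72 at probe 15931, a mean of -0.74 ± 0.24 (adjusted p = 0.00583). Its other probe, 8528, ranged from -2.45 to 0.70 over the 3 mice with both arrays and did not pass (-1.01 ± 1.59, adjusted p = 0.261). One array value of this probe in mouse 3 was the placeholder of a spot without a ratio. Myl10, a regulatory light chain, read -0.39, -0.42, -0.40 and -0.36. Its mice lay close together, and the mean was -0.39 ± 0.03 (adjusted p = 0.00703). That closeness is of values averaged over both dye orientations. The Myl10 arrays with the mutant in Cy5 gave -0.66. Those with the mutant in Cy3 gave -0.12 and did not pass (adjusted p = 0.375).

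Of the 6 sarcomeric light chain probes, 1 was higher and none was lower. Myl1, the essential light chain of fast muscle, was higher at probe 19851, which read 0.41, 0.76, 0.15 and 0.46 (0.45 ± 0.25, adjusted p = 0.0279). That call was lost without mouse 1, 2 or 4, at adjusted p of 0.0528, 0.0811 and 0.0944. The other Myl1 probe, 19196, lay below 0 in every mouse and did not pass (-0.39 ± 0.33, adjusted p = 0.0789). The slow muscle and ventricular light chain Myl3 split the mice, with 0.08 and 0.01 in mice 1 and 2 and 0.79 and 0.75 in mice 3 and 4, and did not pass (0.41 ± 0.42, adjusted p = 0.112).

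**Figure D2:**
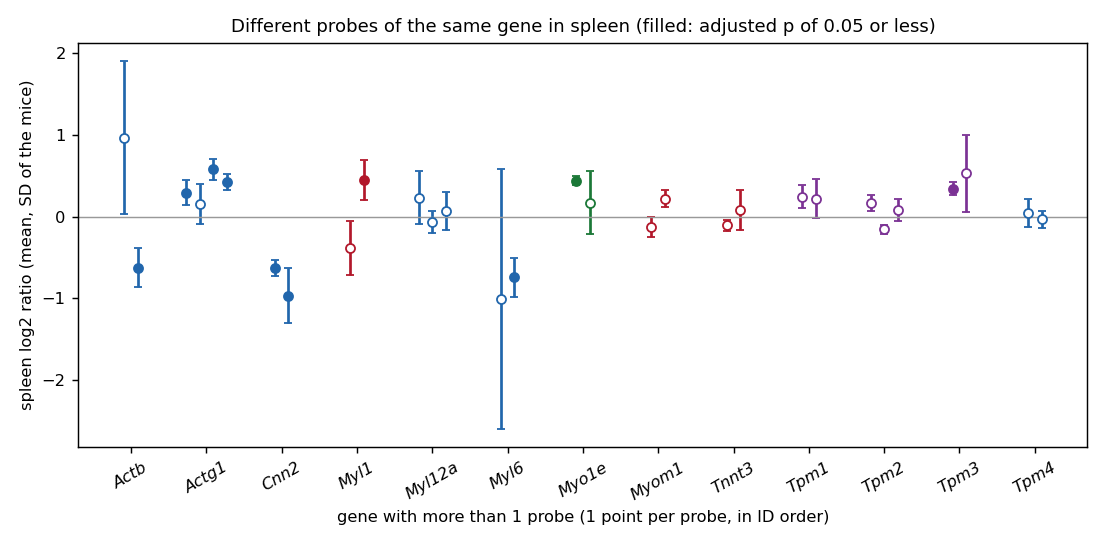
Spleen log2 ratio of mutant over pool (vertical axis, mean and SD of the mice) for each probe of the 13 member genes with more than 1 probe (horizontal axis, in ID order), filled where adjusted p was 0.05 or less. The filled probes of Actg1 lie on 1 side of 0, as do those of Cnn2, while the probes of Actb and of Myl1 lie on opposite sides.

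The plot of genes with more than 1 probe shows how far the members shared the doubt about the annotation. These 13 genes had 30 probes forming 22 pairs, of which 13 (59.1%) had means on the same side of 0, against 50.3% over the array. In the 4 pairs in which both probes had passed, 3 of Actg1 and 1 of Cnn2, the direction was the same, against 50.7% of such pairs over the array. The 3 Actg1 pairs share their probes, so they are not separate cases. With the running median over neighbouring IDs subtracted, Actg1 probes 18282 and 8680 and Cnn2 probe 20507 did not pass (adjusted p = 0.103, 0.289 and 0.115). None of the 4 pairs then had both probes called. When the probes of a gene were averaged first, Actg1 (0.36, adjusted p = 0.0112) and Cnn2 (-0.80, adjusted p = 0.00367) kept their calls. Tpm3 (0.44, adjusted p = 0.0301) and Myo1e (0.31, adjusted p = 0.0439) kept theirs too. Actb (-0.03, adjusted p = 0.945), Myl1 (0.03, adjusted p = 0.856) and Myl6 (-0.88, adjusted p = 0.0547) did not pass.

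The linkers and anchors of the filaments were lower where they were called. Des, the intermediate filament protein that ties myofibrils together, read -0.75, -0.55, -0.48 and -0.62 in spleen and 0.08, -0.07 and -0.10 in thymus. The tissues did not overlap, and the mean was -0.60 ± 0.11 (adjusted p = 0.00424). Actn2, the alpha-actinin of the Z-disc in heart and skeletal muscle, read -0.34, -0.30, -0.42 and -0.39, a mean of -0.36 ± 0.05 (adjusted p = 0.00967). Without mouse 4 its adjusted p was 0.051. The Actn2 arrays with the mutant in Cy5 gave -0.60. Those with the mutant in Cy3 gave -0.13 and did not pass (adjusted p = 0.287). Myom1, a scaffold of the M-line, had 2 probes of opposite sign, at -0.13 ± 0.12 and 0.22 ± 0.10, and neither passed.

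Of the proteins that supply muscle with oxygen and energy, Mb, the oxygen store myoglobin, had among the tightest values of the members. It read -0.53, -0.48, -0.50 and -0.56 in spleen and -0.03, 0.04 and 0.01 in thymus. Every spleen mouse was lowered to nearly the same extent, and the mean was -0.52 ± 0.03 (adjusted p = 0.00413), 1.43-fold lower. Ckm, the muscle creatine kinase, read -0.07, 0.14, -0.02 and -0.40 and did not pass (-0.09 ± 0.23, adjusted p = 0.549).

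The tropomyosins, the strands that lie along actin, had 1 higher call and none lower among 9 probes, with 7 means above 0. Tpm3 was called at probe 6420, which read 0.22, 0.37, 0.38 and 0.39 (0.34 ± 0.08, adjusted p = 0.0141). Mouse 1 was the lowest, and the call was lost without mouse 2 or 4, at adjusted p of 0.063 and 0.0669. The other Tpm3 probe, 7395, also lay above 0 in every mouse, with mouse 3 at 1.23, and did not pass (0.53 ± 0.47, adjusted p = 0.0742).

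The unconventional myosins had the largest share of called probes among the classes, 6 of 12 (50.0%), with 4 higher and 2 lower. The non-muscle probes came next at 42.9%, and 25.3% of all probes passed. Allowing for spread among the pooled wild-type animals kept the calls of Myo1f and Myo1e probe 5291 (adjusted p = 0.028 and 0.037). The calls of Myo5a, Myo9b, Myo3b and Myo10 were then lost, at adjusted p of 0.0541 to 0.132. The share of 6 of 12 thus did not hold with that allowance, under which 8.39% of all probes passed. The calls of Myo10 and Myo3b were also lost with the running median over neighbouring IDs subtracted (adjusted p = 0.0583 and 0.0614). In the test of a change over 1.2-fold, Myo1f alone of this class kept its call. Myo1f, a membrane-linked class I myosin of blood cells, read -0.64, -0.54, -0.91 and -0.76 in spleen and 0.03, -0.02 and -0.15 in thymus. No spleen value reached the thymus range, and the mean was -0.71 ± 0.16 (adjusted p = 0.00413), 1.64-fold lower. Myo9b, another unconventional myosin, was the other lower call and is named here after its values were seen, at -0.36 ± 0.15 (adjusted p = 0.0219).

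The higher calls were Myo5a, Myo1e, Myo3b and Myo10. Myo1e, another class I myosin, read 0.39, 0.42, 0.44 and 0.52 at probe 5291 (0.44 ± 0.05, adjusted p = 0.00585). Its mice were close together and all above the thymus values of 0.15, -0.08 and 0.04. Its other probe did not pass (0.17 ± 0.39), with mouse 1 at 0.72 and mouse 2 at -0.18. Myo5a, a carrier of vesicles and melanosomes, read 0.32, 0.55, 0.35 and 0.57 (0.45 ± 0.13, adjusted p = 0.00944). Its thymus values of 0.30, 0.14 and 0.03 were also above 0 and lay below the spleen mice. With the running median over neighbouring IDs subtracted, the Myo5a spleen mean rose to 0.99 (adjusted p = 0.00442). Myo3b (0.31 ± 0.13, adjusted p = 0.0282) and Myo10 (0.28 ± 0.10, adjusted p = 0.0302) passed less firmly. The Myo10 call was lost when any 1 mouse was left out, at adjusted p of 0.061 to 0.0942, and the Myo3b call without mouse 2, 3 or 4, at 0.0778 to 0.108.

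The 42 members that did not pass had means from -1.01 to 0.96, the extremes being the Myl6 and Actb probes with a missing mouse. Of the 63 members with a value in 4 mice, 19 lay above 0 in every mouse and 19 below 0 in every mouse. Of all probes with 4 mice, 27.7% lay above 0 in every mouse and 20.7% below.

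The comparison of striated with smooth and non-muscle genes in spleen showed a small difference that depended on the handling of the values. Of the 23 striated probes, 2 were higher and 5 were lower (30.4% passed, near the 25.3% of all probes), with a median of -0.11. Of the 35 smooth muscle, non-muscle and unconventional myosin probes, 7 were higher and 8 were lower (42.9% passed), with a median of 0.01. The 21 non-muscle probes held 3 higher and 6 lower calls (median -0.07), the 12 unconventional myosins had a median of 0.14, and the 8 probes shared between muscle kinds held 1 call each way (median 0.19). The 2 smooth muscle probes had a median of -0.13, below that of the striated probes. The median of all probes tested was 0.04.

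**Figure D3:**
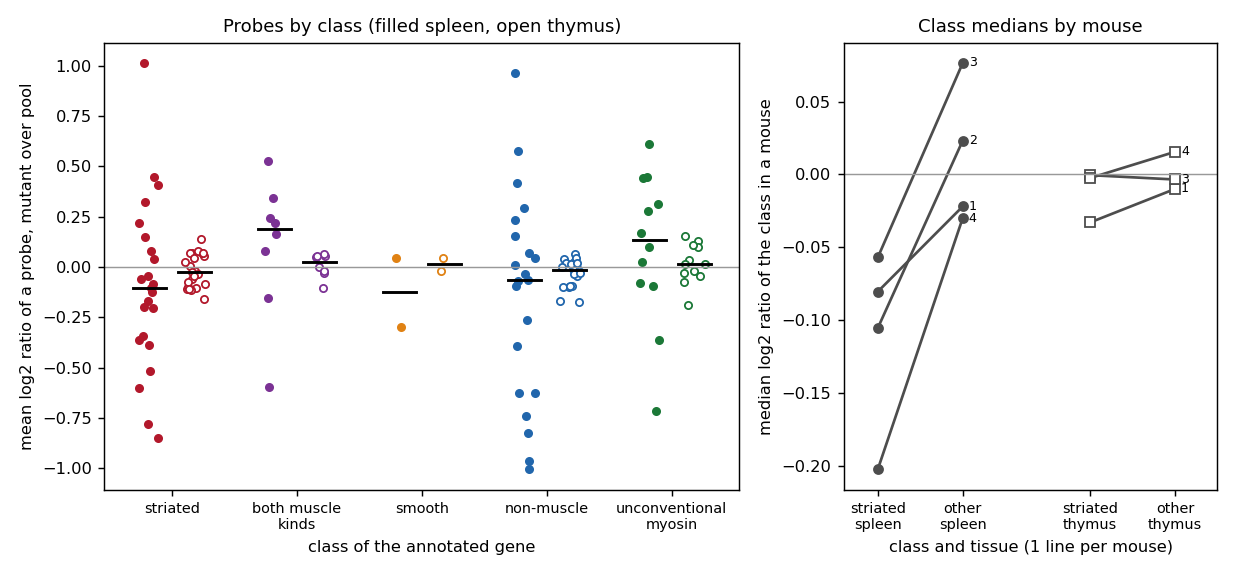
Left, mean log2 ratio of mutant over pool (vertical axis) of each member probe by class, filled for spleen and open for thymus, with class medians as bars. Right, median of the striated and of the other probes (smooth muscle, non-muscle and unconventional myosin) in each mouse, joined by a line per mouse. In spleen the striated median lies below the other in all 4 mice, by 0.06 to 0.17, and in thymus the medians differ by 0.02 at most.

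Mouse by mouse, the striated median in spleen was -0.08, -0.11, -0.06 and -0.20 and the other median was -0.02, 0.02, 0.08 and -0.03. The striated median was the lower in each mouse, with differences of -0.06, -0.13, -0.13 and -0.17, a mean difference of -0.12 ± 0.05 (SD, n = 4). The other median includes the unconventional myosins, whose own median was above 0. Against the non-muscle probes alone the order was reversed in mouse 1, at -0.08 striated and -0.09 non-muscle. In mice 2, 3 and 4 the non-muscle medians were 0.01, 0.00 and -0.12, above the striated ones. In thymus the difference was -0.02, 0.00 and -0.02. No p is given for these medians, because the members and their classes were chosen with results of these data known. The difference changed sign on the arrays with the mutant in Cy3 (0.04), against -0.17 on those with the mutant in Cy5, and was -0.01 once the running median over neighbouring IDs was removed and -0.07 with Des, Tpm1, Tpm2 and Tpm3 counted as striated. The striated probes were also not spread evenly over the array: 13 of the 23 had IDs between 19161 and 19851, where the 669 other probes tested had a spleen median of -0.01. Within that stretch 2 striated probes were higher and 2 lower, and outside it 3 of 10 were lower and none was higher.

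The dye orientation bore on single probes as well. In spleen 47 of the 66 members, and 23 of the 24 called, had means on the same side of 0 in both orientations, the exception among the calls being Actg1 probe 8680. The calls were made on the mean of both orientations, which favours probes that agree, so the count among them adds no support. The share over all probes is not given here.

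**Figure D4:**
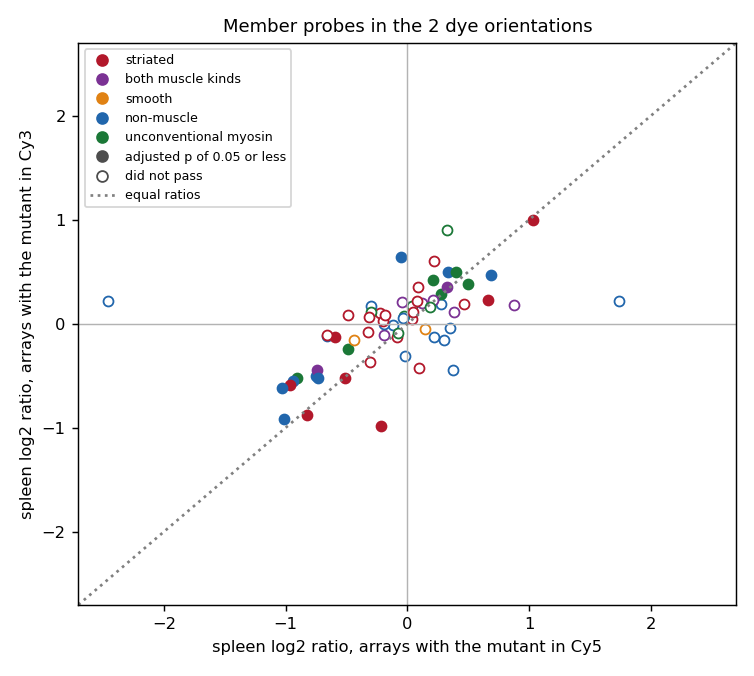
Spleen log2 ratio of each member probe on the arrays with the mutant in Cy5 (horizontal axis) and in Cy3 (vertical axis), coloured by class and filled where adjusted p was 0.05 or less. The called probes other than Actg1 probe 8680, at -0.06 and 0.64, lie on 1 side of 0 on both axes, and Tnnc2, at 1.03 on the Cy5 arrays, lies near the dotted line of equal ratios.

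All spleen calls rested on taking the arrays with the mutant in Cy3 as already turned to mutant over pool. With those arrays turned, no member and 1 of 20127 probes (0.00497%) passed. Under the 14 other alternatives that give a value for each probe, which leaves out the gene means, 7 of the 23 called probes named by the rule kept their call throughout: Tnnc2, Tnni1, Myh14, Myl6 probe 15931, Myo1f, Cnn2 probe 2559 and Des. When the variance of a pool of 4 mice was added to the test, 13 members passed, 3 higher and 10 lower (against 8.39% of all probes), each also called without it. A change over 1.2-fold was passed by 8 members, 1 higher and 7 lower, against 4.41% of all probes.

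In thymus, no member passed, and neither did any other of the 20130 probes tested (0.0%). The smallest adjusted p of the 65 members tested was 0.866, 2 members and 725 of all probes had an unadjusted p under 0.05, and a joint fit of both tissues called no member either. No thymus mean exceeded 0.187 in size. The median over the members was -0.01, and the median SD between mice was 0.083, against 0.155 in spleen. Averaging takes out what a mouse's 2 arrays hold with opposite sign, and the paired thymus arrays correlated negatively. Over all probes, thymus arrays of different mice in the same orientation correlated at 0.144 to 0.393. Means near 0 and a small SD therefore do not show an unchanged thymus. Among members with 1 sign in all 3 mice, those with the smallest p below 0 were both Cnn2 probes, at -0.17 ± 0.04 for probe 20507 and -0.18 ± 0.04 for probe 2559 (SD, n = 3; adjusted p = 0.866 each). Both were also below 0 in every spleen mouse. Tnnt3 probe 2415 (-0.11 ± 0.02) and Tnnt2 (-0.11 ± 0.03) were next. Above 0, again among members with 1 sign in all 3 mice, these were Tnnt1 (0.07 ± 0.03), Myo5a (0.15 ± 0.14), Myl3 (0.07 ± 0.07) and Myo1g (0.10 ± 0.14), a class I myosin of blood cells, and none of the 8 passed.

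The difference between the tissues was tested directly, since a call in 1 tissue does not show that the other differs. It passed for 17 of 65 members (26.2%), against 13.9% of 19948 probes. Spleen was higher in 5 (7.69%, against 5.91%) and lower in 12 (18.5%, against 8.04%). All 17 were among the 24 spleen calls, which have the same spleen values in both tests. The mouse values of the tissues did not overlap in 26 of 65 members (40.0%), against 31.0% of all probes, and in 20 of the 24 spleen calls. The calls were selected for consistent spleen values, and the thymus values average paired arrays that correlated negatively. A gap between the tissues is thereby favoured, so the count among the calls adds no support. The same limit applies to the called probes described singly above as apart from thymus. The share among all called probes is not given here.

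**Figure D5:**
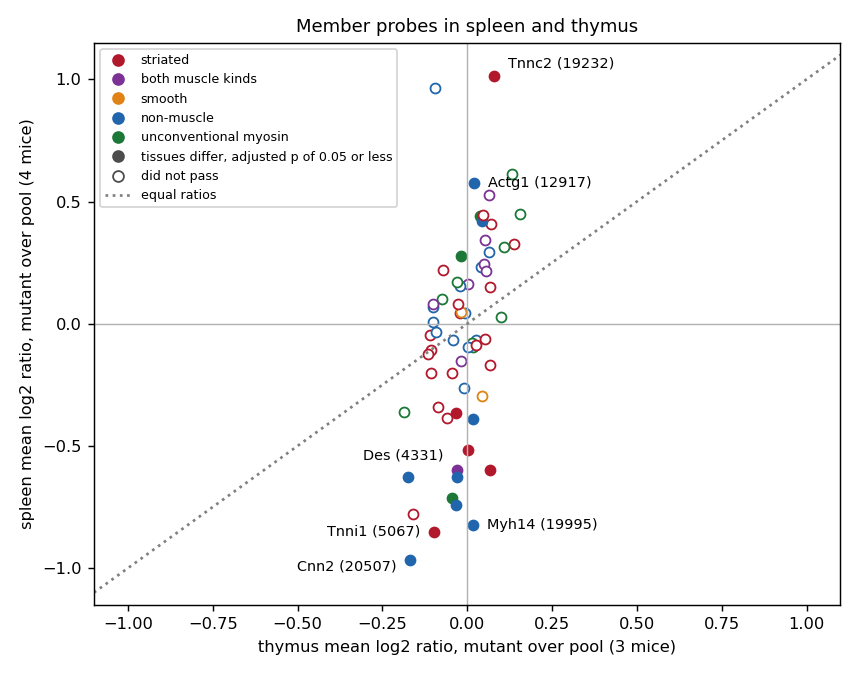
Mean log2 ratio of mutant over pool in thymus (horizontal axis, 3 mice) and in spleen (vertical axis, 4 mice) for the 65 members tested in both, coloured by class and filled where the tissues differed at an adjusted p of 0.05 or less. The points form a narrow upright band, within 0.19 of 0 in thymus and from -0.96 to 1.01 in spleen.

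The largest differences that passed were those of Tnnc2 at 0.93 (SE 0.13, adjusted p = 0.00567), Myh14 at -0.84 (SE 0.10, adjusted p = 0.00463) and Cnn2 probe 20507 at -0.80 (SE 0.17, adjusted p = 0.0186). With the smallest p after Myh14 came Mb (-0.52, SE 0.07), Tnnc2, Actc1 (-0.67, SE 0.10), Myo1f (-0.67, SE 0.10) and Des (-0.57, SE 0.09), with adjusted p of 0.0056 to 0.0084. These members had thymus means close to 0, so the differences repeat the spleen values. Those means average paired arrays that correlated negatively, so they do not show that thymus was unchanged. Tnni2 (-0.62, adjusted p = 0.221) and Myo5a (0.29, adjusted p = 0.0995) were called in spleen, and their difference from thymus did not pass. When mouse 3 or mouse 4 was left out of the fit without a block, no member passed, beside 10 of all probes without mouse 3 and none without mouse 4. With the mouse as a block, over the 3 mice measured in both organs, 5 members passed: Tnnc2 on the higher side and Myo1f, Tnni1, Actc1 and Myh14 on the lower, against 3.1% of all probes. The spleen minus thymus values of that fit were 1.01 for Tnnc2 and -0.84 for Myh14 (adjusted p = 0.0449 each).

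Genes that work with the members were counted from lists of neighbouring parts of the pathway. Of 37 probes of other sarcomere and striated muscle genes tested in spleen, 6 were higher and 5 lower, with a median of 0.09. The small heat shock protein Cryab, which guards desmin filaments, was lower at -0.73 ± 0.08 and Csrp3, a Z-disc protein, was higher at 0.47 ± 0.16 (adjusted p = 0.00401 and 0.0101). Of 22 probes of other smooth muscle contractile genes, 2 were higher and 4 lower (median 0.08). Cald1, caldesmon, was higher at 0.58 ± 0.05 and Vcl, vinculin, which anchors actin at the membrane, was lower at -0.72 ± 0.19 (adjusted p = 0.00401 and 0.00444). The shares passed in these lists, 29.7% and 27.3%, were near the 25.3% of all probes.

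Of 30 probes of genes that control actomyosin, 3 were higher and 8 lower (36.7%; median -0.07). Rhoa, a small GTPase, was lower at -0.81 ± 0.12, and Limk1, the kinase that stops cofilin from cutting actin, was lower at -0.57 ± 0.05 (adjusted p = 0.00401 each). Of 12 probes of muscle transcription factors, 1 was higher and 1 lower (16.7%). These were Mef2d at 0.31 ± 0.05 (adjusted p = 0.0157) and Mef2c at -0.79 ± 0.18 (adjusted p = 0.00401), 2 factors that bind the MEF2 site. In thymus no probe of these 4 lists passed, nor did any at all.

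Markers of other cell types that a spleen sample may hold were counted beside the members. The probes named are those with the smallest spleen p in each list. Of the pancreas list, an organ that adjoins the spleen, 3 of 9 probes were higher and none lower (Ctrl 0.69, Spink1 0.24). The lowest pancreas probe stood at -0.83 and did not pass, and the list medians of mice 1 to 4 were 0.26, -0.09, 0.11 and -0.04. Of the adipocyte list 1 of 15 was higher and 2 lower (Adipoq -0.47, Pparg -0.44), of the fibroblast list 2 of 26 were lower (Col1a2 at -0.64 and -0.27), and of the endothelial list 2 of 19 were lower (Cdh5 -0.72, Tek -0.61). The pericyte list gave 1 higher and 1 lower of 5 (Kcnj8 0.29, Cspg4 -0.65). Among blood cells, the B cell list gave none of 8 (Ms4a1 0.29, Blk 0.20), the T cell list 3 higher and 3 lower of 17 (Lat 0.67, Cd28 -0.82), the macrophage list 1 higher and 2 lower of 10 (C1qc 0.63, Tyrobp -0.52) and the erythroid list 1 higher and 4 lower of 19 (Sptb -0.64, Hba-a1 -0.52). Over all probes 25.3% passed. Lists whose named probes were all lower also held probes above 0. The highest adipocyte, fibroblast, endothelial and erythroid probes stood at 0.47, 0.22, 0.47 and 0.38. The medians of these lists in spleen ran from -0.09 for adipocytes to 0.17 for pericytes and for pancreas, in the range of the members' classes. Their part in the members' values was not tested, and since the ratios hold no level it is not known which of these markers were expressed. The probes of Cd28, Cdh5, Tek and Pparg, and of Rhoa and Mef2d above, had IDs from 20249 to 20677. Member probes 20507, 20635 and 20790 lay where the spleen running median over neighbouring IDs was -0.64, -0.54 and -0.47. That median was not subtracted from the list values given here.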

How the data were processed

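RNA (20 µg a sample) was converted to cDNA and carried Cy3 or Cy5 by indirect labelling, per the labels' protocols. What the authors deposited for each of 16 arrays, 8 per organ, is a log ratio between the channels, read as log2. How images were quantified, corrected and normalized is not stated in these sources. The files hold no intensities, so the precision is limited by the number of arrays and mice. Each array repeats 1 extreme constant, 15.1 to 16.9 in size, which was set to missing. Its sign was positive with the mutant in Cy5 and negative with it in Cy3 on all 16 arrays, so the arrays were taken as already turned to mutant over pool.

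The mean of a mouse's 2 arrays, where both had a value, was a replicate. In thymus mouse 2, 83.53% of the sums of the 2 arrays lay within 0.01 of their median, against 1.28% to 5.8% in the other pairs, and this mouse was left out. Each organ was fitted alone with limma 3.58.1 in R 4.3.3 (lmFit and eBayes) over probes with at least 3 mice, and organs were compared in a 2-group fit. The steps were tested on simulated data. Symbols came from the platform annotation, and all were found in RefSeq's gene table. The mouse numbers pair the organs because the mouse identifiers in the labels are the same; the deviations of a mouse in its 2 organs correlated at -0.071 to -0.008.

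Probes were named by rule: spleen calls with 1 sign in every mouse (12 highest, 12 lowest), the 4 smallest thymus p-values each way among probes with 1 sign in every mouse, the 6 smallest p-values of the organ difference, all probes of the genes spelled out for membership, of the actins, the troponins and Myh11, other probes of genes so named, Emp3, and up to 2 probes of each other list. Those lists are other sarcomere, other smooth muscle, control of actomyosin, muscle transcription factors, pancreas, adipocyte, fibroblast, endothelial, pericyte, B cell, T cell, macrophage and erythroid. The members, classes, lists and tests were chosen with earlier results of these data known. Alternatives covered the dye reading, single orientations, centring, the running median, placeholders, missing values, the pool's variance, a change over 1.2-fold, gene means, a joint fit, the mouse as a block and each mouse left out. After the values were seen, the shared genes were also counted as striated, and the members with IDs 19161 to 19851 were left out.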

Additional observations from a re-analysis of the deposited data

Results flagged for a closer look

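In 7 of the 63 spleen members measured in 4 mice, 1 mouse stood apart from the other 3 by Dixon's criterion at 95%, which chance meets in about 1 in 20 groups. Mouse 1 was the outlying one in 4 of them: Myo18a at 2.1, Myl2 at 0.76, Myo1g at -0.29 and Tpm3 probe 6420 at 0.22. Mouse 3 stood apart for Tpm3 probe 7395 at 1.23 and Actg1 probe 10015 at 0.52, and mouse 4 for Myom1 probe 19281 at -0.31. Of these 7 probes, Tpm3 probe 6420 was called. Myo18a and Myl2 are named here after their values were seen.

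In 17 members the log2 ratio differed between spleen and thymus by the test of the difference itself. The spleen ratio was the higher at Tnnc2 by 0.93, at Actg1 by 0.56 (probe 12917) and 0.38 (probe 18282), at Myo1e probe 5291 by 0.4 and at Myo10 by 0.3. The spleen minus thymus difference was -0.84 at Myh14, -0.8 at Cnn2 probe 20507 and -0.45 at Cnn2 probe 2559. It was -0.75 at Tnni1, -0.71 at Myl6 probe 15931, and -0.67 at both Actc1 and Myo1f. For Actb probe 18979 it was -0.6, for Des -0.57, for Mb -0.52, for Myl10 -0.41 and for Actn2 -0.33. These differences are from the fit without the mouse as a block, in which no member passed when mouse 3 or mouse 4 was left out. With the mouse as a block, 5 members passed.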

How the results depend on the processing

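The reading of the dye exchange decided every call: with the Cy3 arrays turned, the counts of 10 higher and 14 lower members in spleen and of 5 higher and 12 lower in spleen minus thymus were all 0. The higher spleen count was 5 with the running median removed, 5 on the Cy5 arrays alone, 17 in the joint fit, 3 with the pool's variance, 1 for a change over 1.2-fold and 5 to 9 without 1 mouse (5 without mouse 2 or mouse 4). Over all probes, 13.4% were higher, and in the same order these shares were 7.7%, 8.04%, 21.8%, 2.9%, 0.964% and 4.8% to 13.2%. The lower count was 7 for a change over 1.2-fold (3.44% of all probes, against 11.9%) and 11 to 14 without 1 mouse. Of the organ difference, the higher count was 3 with the running median removed, 0 on the Cy5 or the Cy3 arrays alone, 3 with gene means, 9 with thymus mouse 2 kept, 1 with the pool's variance, 0 over 1.2-fold, 1 with the mouse as a replicate block and 0 to 4 without 1 mouse. Over all probes 5.91% were higher, and these shares were 3.07%, 0.702% and 0.0791%, 5.18%, 11.1%, 0.301%, 0.015%, 0.568% and 0.0% to 4.6%. The lower count was 0 on the Cy3 arrays alone, 2 with the pool's variance, 0 over 1.2-fold, 4 with the replicate block and 0 to 13 without 1 mouse (0 without mouse 3 or mouse 4). The all-probe share, 8.04%, was 0.0148%, 1.04%, 0.00501%, 2.53% and 0.0% to 6.93%. The counts in thymus were 0 throughout.

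The spleen median of the smooth muscle and non-muscle members, 0.01, was -0.054 under the other dye reading and -0.075 with the running median removed. The striated median, -0.11, was -0.20 on the Cy5 and 0.043 on the Cy3 arrays. Their difference, -0.12, was -0.018 under the other dye reading, -0.014 with the running median removed, -0.17 on the Cy5 arrays, 0.042 on the Cy3 arrays, -0.049 with gene means, -0.07 with Des, Tpm1, Tpm2 and Tpm3 as striated, -0.15 without the members at IDs 19161 to 19851 and -0.14 to -0.08 without 1 mouse. In thymus the striated median, -0.03, was -0.0012 under the other dye reading, 0.006 on the Cy5 and -0.004 on the Cy3 arrays, and the other median, -0.01, was 0.023 on the Cy3 arrays. Their difference, -0.02, was -0.0038 under the other dye reading, 0.015 on the Cy5 arrays and -0.0017 without the members at IDs 19161 to 19851. The cause of these shifts was not tested.

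Under the other dye reading the spleen means of Myo10 (-0.0049), Mb (0.0014), Tnni1 (0.023), Tpm3 probe 6420 (-0.014), Actg1 probe 8680 (-0.35), Myo3b (-0.11), Actg1 probe 18282 (-0.082), Actc1 (0.38) and Myo5a (-0.048) changed sign, as did the organ differences of Actc1 (0.22) and Tnnc2 (-0.22). Actg1 probe 8680 also changed sign on the Cy5 arrays alone (-0.055). Of the 23 called probes named by the rule, 16 kept their call whichever mouse was left out of spleen. Replicates are mice, and the 2 arrays of a mouse are technical.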
